A study of Mus musculus with 9 samples.

Results

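Fibronectin, periostin, Sparc, tenascins C and X and thrombospondins 1 to 4 are secreted proteins of the extracellular matrix, encoded in the mouse by Fn1, Postn, Sparc, Tnc, Tnxb, Thbs1, Thbs2, Thbs3 and Thbs4. These 9 genes were taken by name. All 9 were among the 23420 genes counted, and all 9 were among the 15635 that passed the filter on low counts. The largest measured differences were in Fn1, which was 15.3-fold higher in bone than in thymus cells, and in Tnc, which was 23.4-fold higher in bone than in skin cells. Postn ran the other way from Fn1 and was 6.01-fold higher in thymus than in bone.

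The RNA came from cells of C57BL/6 mice aged 3 to 4 weeks that were sorted as SCA1-positive and negative for CD31 and EpCAM, which mark endothelial and epithelial cells, and for antigens of blood cells (TER119, CD41, CD45, GR-1, CD11b, B220, CD2 and CD4). The 3 groups are named by organ: thymus, bone (femur, tibia and pelvis) and skin (dermis of the abdomen and back), with 3 libraries each. Bone was also crushed and its red cells were lysed, and the labels do not describe how skin was digested, so organ and preparation cannot be told apart. At least 25000 cells were sorted per sample, and no mouse carried a transgene or received a treatment that the labels name. The thymus libraries are labelled 2, 3 and 1-3, and the bone and skin libraries 1, 2 and 3. The labels do not explain "1-3", and a pool would leave fewer than 3 separate thymus samples. Nor do they state whether each library comes from its own mice. A p-value here therefore reflects the variation among these libraries, and that variation may be technical.

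Fibronectin circulates in plasma and is also made by connective tissue cells, which pull it into fibrils through integrins and use those fibrils as a template for other matrix proteins. Most of the other proteins are called matricellular: they bind collagens, growth factors and cell surface receptors, and alter how cells attach to the matrix. Sparc, also known as osteonectin, binds collagen and calcium, and periostin, named after the periosteum, binds collagen and fibronectin. Tenascin-C is found around tendons, cartilage and forming bone, while tenascin-X belongs to loose connective tissue, and its loss in people causes a form of Ehlers-Danlos syndrome with fragile, stretchable skin. Thrombospondins 1 and 2 form trimers and restrain the growth of blood vessels, and thrombospondin 1 also activates latent TGF-beta. Thrombospondins 3 and 4 form pentamers, as does Comp, their close relative in cartilage and tendon.

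To show the stretches where transcription of 4 of these genes begins, the 250 bases before their start are printed, for the genes with the widest differences between tissues that the RefSeq promoter table held. The table (RefSeq, GRCm38.p6, the same build as mm10) matched 7 of the 9 genes in 9 windows, and held no entry for Fn1 or Thbs1. Each sequence runs 5′ to 3′ on the strand of its gene. Capitals mark TATAAA (the core of a TATA box), GGGCGG (a GC box) or TGANTCA (the site of AP-1 factors such as Fos and Jun), searched on both strands.
Postn, chr3:54360857-54361106, plus strand: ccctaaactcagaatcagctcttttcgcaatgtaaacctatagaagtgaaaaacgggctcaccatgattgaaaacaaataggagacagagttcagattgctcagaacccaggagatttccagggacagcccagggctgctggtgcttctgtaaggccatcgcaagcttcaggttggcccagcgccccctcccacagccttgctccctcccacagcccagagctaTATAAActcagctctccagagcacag
Tnc, chr4:64047016-64047265, minus strand: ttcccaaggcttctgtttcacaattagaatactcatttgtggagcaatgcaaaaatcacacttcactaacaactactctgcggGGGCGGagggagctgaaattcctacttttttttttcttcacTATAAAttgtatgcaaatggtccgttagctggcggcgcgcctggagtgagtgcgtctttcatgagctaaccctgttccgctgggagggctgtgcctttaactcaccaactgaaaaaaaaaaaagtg
Tnxb, chr17:34670285-34670534, plus strand: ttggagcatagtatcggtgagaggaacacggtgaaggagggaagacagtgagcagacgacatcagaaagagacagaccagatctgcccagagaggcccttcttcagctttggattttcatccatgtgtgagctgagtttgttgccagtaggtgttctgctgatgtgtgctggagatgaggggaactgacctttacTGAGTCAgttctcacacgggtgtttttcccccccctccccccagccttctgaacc
Thbs4, chr13:92794819-92795068, minus strand: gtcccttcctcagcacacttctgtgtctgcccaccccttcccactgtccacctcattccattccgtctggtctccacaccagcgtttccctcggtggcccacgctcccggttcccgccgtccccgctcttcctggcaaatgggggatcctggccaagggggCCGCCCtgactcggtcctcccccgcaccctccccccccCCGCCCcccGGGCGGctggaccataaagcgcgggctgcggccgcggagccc

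Postn has 2 starts in the table. The printed window, before the start at 54361107, had TATAAA beginning 26 bases before that start, and the window before the other, at 54359267, held none of the motifs searched. Tnc also has 2 starts in the table. Its printed window had TATAAA beginning 126 bases and GGGCGG 167 bases before the start at 64047015. Counted from the other start, at 64046936, TATAAA began 205 bases and GGGCGG 246 bases before it. Tnxb had neither, and had TGANTCA 55 bases before its start. Thbs4 had GGGCGG in 3 places, 89, 51 and 42 bases before its start, and GGAATG (the core bound by TEAD factors) in 2, at 197 and 192 bases. Outside the printed windows, Thbs2 held TATAAA 126 bases before its start and Thbs3 held GGGCGG 21 bases before its start. Over all 32851 windows of this length in the table, TATAAA stood in 12.4%, GGGCGG in 32.7%, TGANTCA in 6.75% and GGAATG in 12.6%. TGTGGT, the core of the RUNX site, stood in 14.0% and in none of the 9 windows. CANNTG, the E-box, stood in 66.2%. A match of letters is a description of the window and no evidence that a factor binds there.

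The 9 libraries held 78757872 to 116759235 reads on genes. Levels are given as CPM, the counts per 1000000 gene reads after scaling between libraries by TMM factors, which assume that most genes do not differ. The factors were 1.10 to 1.23 in thymus and bone and 0.701 to 0.770 in skin. That scaling bears on every comparison with skin: with library size alone, the median log2 fold change of all genes moved from 0.03 to 0.66 for thymus against skin and from 0.03 to 0.72 for bone against skin. Levels of different genes are ranked in the deposited RPKM, which divides by gene length and sequencing depth. Mesenchymal markers were abundant in all 3 tissues, at 52664 to 55764 CPM in thymus, 67559 to 68342 CPM in bone and 334391 to 370944 CPM in skin for the sum of 10 genes. Ly6a, which encodes SCA1, was at 427 ± 49.7 CPM in thymus, 280.1 ± 43.8 CPM in bone and 948 ± 380.1 CPM in skin, and Pdgfra, a fibroblast receptor, at 1159.7 ± 37.7 CPM in thymus, 737 ± 59.0 CPM in bone and 776 ± 87.7 CPM in skin. Markers of other cells moved with tissue as well. Myeloid markers summed to 17.5 to 50.0 CPM in thymus, 2858 to 3879.9 CPM in bone and 41.9 to 98.5 CPM in skin. The sum of tendon and joint markers was 24.7 to 35.5 CPM in thymus, 29029 to 44723 CPM in bone and 57.8 to 83.4 CPM in skin. Nearly all of the bone sum was the joint gene Prg4, at 44070, 27933 and 43494 CPM in bone 1, 2 and 3. The tendon gene Tnmd was at 63.1, 51.7 and 62.8 CPM in the same libraries. In bulk RNA, fewer cells of a type and less RNA per cell cannot be told apart.

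Between thymus and bone, 1 of the 9 genes was higher in thymus (Postn) and 6 were lower (Fn1, Tnc, Tnxb, Thbs1, Thbs3 and Thbs4) at an adjusted p under 0.05 in edgeR's quasi-likelihood test with Benjamini-Hochberg adjustment. Of all genes tested, 16.5% were called higher and 16.1% lower in that comparison, 32.6% in all. Between thymus and skin, 1 gene was higher in thymus (Tnc) and 6 were lower (Fn1, Sparc, Tnxb, Thbs1, Thbs2 and Thbs3), against 19.3% and 18.3% of all genes and 37.6% in all. With library size alone the split was 3 higher and 5 lower, since Postn and Thbs4 then passed the test as higher in thymus and Thbs2 no longer passed. Between bone and skin, 3 were higher in bone (Fn1, Tnc and Thbs4) and 3 lower (Postn, Sparc and Tnxb), against 23.7% and 23.4% of all genes and 47.1% in all; with library size alone Thbs3 was also called higher in bone. The median log2 fold change over the 9 genes was -1.54 for thymus against bone, -1.97 for thymus against skin and -0.37 for bone against skin, beside 0.02, 0.03 and 0.03 over all genes. With library size alone the median of the 9 was -1.33 for thymus against skin, and for bone against skin it turned to 0.32, beside 0.66 and 0.72 over all genes. In each of the 20 gene comparisons called, the libraries of the 2 tissues did not overlap. The share of called genes without overlap was not computed over all genes, so this describes the levels and adds nothing to the test. The 3 comparisons share libraries in pairs, so their values are set side by side and not counted as separate evidence.

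**Figure D1:**
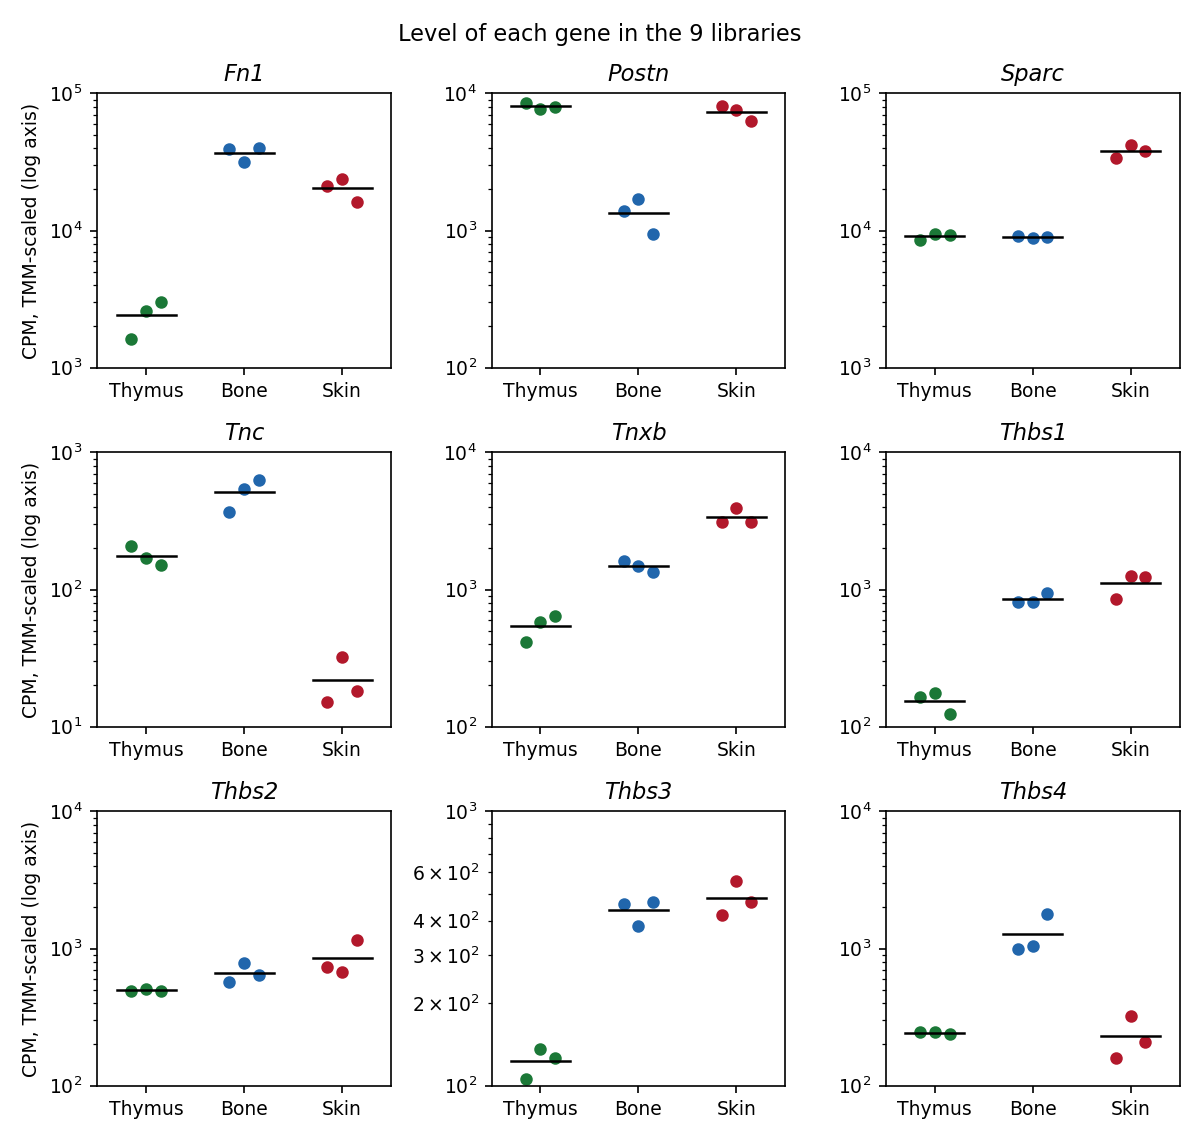
Level of each of the 9 genes in the 9 libraries, in TMM-scaled CPM on a log axis, with 1 point per library and a line at the mean of each tissue. Fn1 was lowest in thymus, Postn was lowest in bone, Sparc was highest in skin, and Tnc fell from bone through thymus to skin.

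Fn1, the fibril-forming glycoprotein, separated the tissues more widely than any of the other 8 genes in the comparison of thymus with bone. It stood at 1614, 2601 and 3018 CPM in thymus, 39040.0, 31766 and 40034 CPM in bone and 21230.4, 23976 and 16096 CPM in skin, in the order thymus 2, 3 and 1-3, bone 1, 2 and 3 and skin 1, 2 and 3 that is kept for all genes. No library of one tissue reached those of another. The means were 2411 ± 721 CPM in thymus, 36947 ± 4514 CPM in bone and 20434 ± 3999.8 CPM in skin (SD, n = 3 each). Fn1 was 15.3-fold lower in thymus than in bone (log2 fold change -3.94 ± 0.26 (SE), adjusted p = 9.35e-07) and 8.48-fold lower than in skin (log2 fold change -3.08 ± 0.25 (SE), adjusted p = 2.88e-06). Bone exceeded skin 1.81-fold (log2 fold change 0.85 ± 0.24 (SE), adjusted p = 0.0110); with library size alone this difference grew to 1.54 and on log2(RPKM + 1) to 1.42. On the deposited scale Fn1 averaged 289 ± 84.1 RPKM in thymus, 4423 ± 447 RPKM in bone and 1671 ± 294 RPKM in skin (SD, n = 3 each). It ranked 3 in bone, 10 in skin and 132 in thymus by mean RPKM among 23034 genes. Fn1 alone took 4.38 ± 0.407% of gene reads in bone, 1.503 ± 0.267% in skin and 0.275 ± 0.0792% in thymus (SD, n = 3 each).

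Fn1 lies in mm10 on chromosome 1, 71585473 to 71653234, on the minus strand, with 45 merged exons and 11685 exon bases in GENCODE M21. Of these, 292 bases (2.5%) overlap exons of Apol7d on the opposite strand; the sources used here do not give the strand setting of the counting, and Apol7d itself was at no more than 0.349 CPM on average in any tissue. Joint and cartilage markers were also high in bone: Prg4, the lubricin of joint surfaces, stood at 44069.7, 27933 and 43494 CPM in the 3 bone libraries, and the sum of 8 cartilage markers at 493, 707 and 473 CPM, beside 14.4 to 24.8 CPM in thymus and 12.3 to 14.99 CPM in skin. Matn1, a cartilage matrilin, was at 0 in all thymus and skin libraries. Within bone these markers did not go together: bone 2, the library with the lowest Fn1, had the lowest Prg4 but the highest cartilage sum, and also the highest Fmod, at 545, 981 and 932 CPM in bone 1, 2 and 3. The part of these cells in the Fn1 level was not tested.

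Sparc, the collagen-binding protein osteonectin, was the most abundant of the 9 per unit length in thymus and skin, and stood apart in skin. Its levels were 8579.6, 9492 and 9350.0 CPM in thymus, 9069, 8773 and 8931 CPM in bone and 33688, 42241 and 37902 CPM in skin. Every skin library exceeded every thymus and bone library, and thymus and bone overlapped. Sparc was 4.15-fold lower in thymus than in skin (log2 fold change -2.05 ± 0.15 (SE), adjusted p = 1.35e-06) and 4.25-fold lower in bone relative to skin (log2 fold change -2.09 ± 0.15 (SE), adjusted p = 1.25e-06). Thymus and bone did not pass the test (log2 fold change 0.03 ± 0.15 (SE), 95% interval -0.29 to 0.36, adjusted p = 0.889), and the sign of that small difference turned to -0.02 with upper quartile scaling and with library size alone. Sparc averaged 4052 ± 288 RPKM in thymus, 3911 ± 41.6 RPKM in bone and 11384 ± 819.6 RPKM in skin (SD, n = 3 each), and ranked 5, 4 and 3 among 23034 genes. Its 3 bone libraries lay close together, with a coefficient of variation of 1.66%. Sparc lies on chromosome 11, 55394501 to 55420080, on the minus strand, with 12 merged exons and 3788 exon bases. Collagens moved with it in skin: Col1a1, a chain of type I collagen, was at 6962 ± 706 CPM in thymus, 13155 ± 993 CPM in bone and 97235 ± 7919 CPM in skin.

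Postn, which encodes periostin, was high in thymus and skin and low in bone. Its levels were 8585, 7694 and 7993 CPM in thymus, 1395, 1704 and 939 CPM in bone and 8092, 7609.8 and 6252 CPM in skin. The 3 bone libraries lay below all others, and the thymus and skin libraries overlapped. The means were 8091 ± 454 CPM in thymus, 1346 ± 385 CPM in bone and 7318 ± 954 CPM in skin (SD, n = 3 each). Postn was 6.01-fold higher in thymus than in bone (log2 fold change 2.59 ± 0.22 (SE), adjusted p = 4.89e-06) and 5.44-fold lower in bone relative to skin (log2 fold change -2.44 ± 0.22 (SE), adjusted p = 4.86e-06). Thymus against skin did not pass (log2 fold change 0.14 ± 0.21 (SE), 95% interval -0.31 to 0.60, adjusted p = 0.626), but with library size alone Postn was higher in thymus, by 0.78 on the log2 scale with an adjusted p = 0.00842. In RPKM it averaged 2442 ± 119 RPKM in thymus, 406 ± 124 RPKM in bone and 1507 ± 214 RPKM in skin (SD, n = 3 each), ranking 10, 64 and 13. Postn lies on chromosome 3, 54361107 to 54391041, on the plus strand, with 22 merged exons and 8702 exon bases, and the printed window with TATAAA ends just before this interval. Fn1 and Postn were opposite between bone and thymus. Within bone, bone 2 had the highest Postn and the lowest Fn1, and thymus 2 did so within thymus. Within skin, skin 3 had the lowest level of both, and no relation within a tissue was tested.

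Per length, each tissue ranked the 9 genes differently. In thymus, Sparc at 4052 ± 288 RPKM and Postn at 2442 ± 119 RPKM led, and Fn1 followed far behind. Below it came Thbs2 at 85.2 ± 4.83, Thbs4 at 75.3 ± 3.73 and Tnxb at 58.0 ± 12.3 RPKM, and at the end Thbs3 at 38.4 ± 5.37, Thbs1 at 27.8 ± 5.77 and Tnc at 25.2 ± 4.51 RPKM. Thbs1 and Tnc did not differ beyond their spread (SD, n = 3 each). In bone, Fn1 at 4423 ± 447 RPKM and Sparc at 3911 ± 41.6 RPKM led, followed by Postn at 406 ± 124 and Thbs4 at 394 ± 133 RPKM, which lay within each other's spread. Tnxb, Thbs1 and Thbs3 came next, between 137 and 158 RPKM on average, then Thbs2 at 114 ± 21.96 and Tnc at 73.4 ± 19.5 RPKM. In skin, Sparc was far ahead of Fn1 at 1671 ± 294 and Postn at 1507 ± 214 RPKM, which did not differ beyond their spread. Tnxb at 246 ± 23.8 RPKM came next, before Thbs1 at 133 ± 23.9, Thbs3 at 101 ± 10.1 and Thbs2 at 100.2 ± 32.5 RPKM, then Thbs4 at 48.1 ± 15.1 RPKM and Tnc last.

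The ratio of Fn1 to Postn in RPKM, taken within each library, is free of the scaling between libraries. It was 0.0750, 0.135 and 0.149 in thymus, 11.2, 7.42 and 17.0 in bone and 1.04, 1.25 and 1.03 in skin. Thymus cells thus carried several times more Postn than Fn1 per length, bone cells the reverse, and skin cells nearly equal amounts. The ratio of Fn1 to Sparc was 0.0515, 0.0750 and 0.0855 in thymus, 1.18, 0.990 and 1.23 in bone and 0.172, 0.155 and 0.115 in skin. Skin exceeded thymus in all libraries of both ratios, and bone exceeded both.

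**Figure D2:**
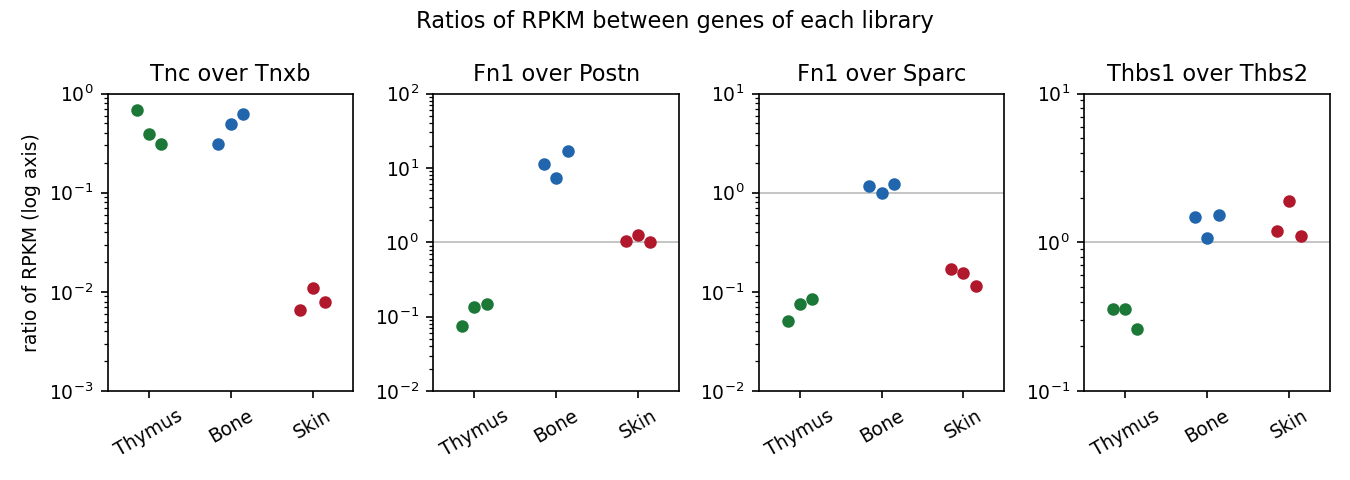
Ratios of RPKM between pairs of the 9 genes, computed within each library and drawn on a log axis, with 1 point per library and a grey line at equal amounts. Fn1 over Postn lay below 0.15 in thymus, above 7.4 in bone and near 1 in skin, and Tnc over Tnxb was lower in every skin library than in any thymus or bone library.

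The tenascins did not follow the same order. Tnc, which encodes tenascin-C, stood at 209.6, 170.1 and 150.4 CPM in thymus, 371, 544 and 626 CPM in bone and 15.2, 32.4 and 18.3 CPM in skin. All bone libraries exceeded all thymus libraries, and all of these exceeded skin. Tnc was 2.91-fold lower in thymus than in bone (log2 fold change -1.54 ± 0.29 (SE), adjusted p = 0.00201), 8.04-fold higher in thymus than in skin (log2 fold change 3.01 ± 0.30 (SE), adjusted p = 2.44e-05) and 23.4-fold higher in bone than in skin (log2 fold change 4.55 ± 0.32 (SE), adjusted p = 2.14e-06). In RPKM it averaged 25.2 ± 4.51 RPKM in thymus, 73.4 ± 19.5 RPKM in bone and 2.11 ± 0.776 RPKM in skin (SD, n = 3 each), ranking 2214, 556 and 8719. It had the lowest mean RPKM of the 9 in each tissue. Tnc lies on chromosome 4, 63959785 to 64047015, on the minus strand, with 27 merged exons and 7772 exon bases, of which 176 bases overlap 8030451A03Rik on the opposite strand, a gene that is not in the count tables.

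Tnxb, which encodes tenascin-X of loose connective tissue, rose in the order thymus, bone, skin. Its levels were 413, 578 and 643 CPM in thymus, 1612, 1476 and 1348 CPM in bone and 3137, 3944 and 3119 CPM in skin, with no overlap between tissues. Thymus was 2.72-fold below bone (log2 fold change -1.44 ± 0.19 (SE), adjusted p = 0.000117) and 6.24-fold below skin (log2 fold change -2.64 ± 0.20 (SE), adjusted p = 1.29e-06). Bone was 2.30-fold below skin (log2 fold change -1.20 ± 0.19 (SE), adjusted p = 0.000273), and with library size alone this difference shrank to -0.51. Tnxb lies on chromosome 17, 34670535 to 34719815, on the plus strand, with 41 merged exons and 12209 exon bases. Tnxb exceeded Tnc per length in every library: the ratio of Tnc to Tnxb in RPKM was 0.677, 0.393 and 0.313 in thymus, 0.307, 0.492 and 0.622 in bone and 0.00653, 0.0110 and 0.00788 in skin. Thymus and bone overlapped in this ratio, and skin lay below both. The printed window of Tnc held TATAAA and GGGCGG and that of Tnxb held TGANTCA, and no link to the levels was tested.

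**Figure D3:**
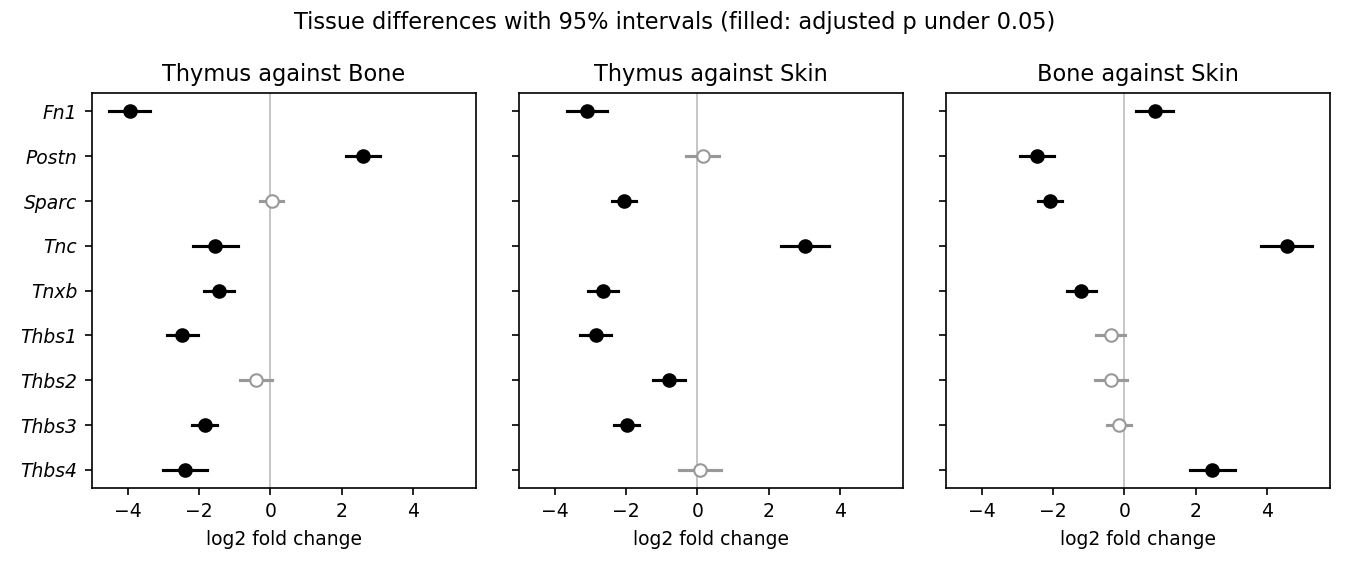
Log2 fold changes of the 9 genes in the 3 comparisons of tissues (points) with 95% intervals (bars), filled black where the adjusted p was under 0.05 and open grey where it was not. A negative value means lower in the tissue named first; Fn1 lay at -3.94 for thymus against bone, and Tnc at 4.55 for bone against skin.

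Of the trimeric thrombospondins, Thbs1 was low in thymus and Thbs2 varied least of the 4. Thbs1 stood at 166, 175 and 124 CPM in thymus, 811, 807 and 946 CPM in bone and 853, 1254 and 1245 CPM in skin. All thymus libraries lay below all others, and bone and skin overlapped. Thbs1 was 5.51-fold lower in thymus than in bone (log2 fold change -2.46 ± 0.20 (SE), adjusted p = 3.17e-06) and 7.20-fold lower than in skin (log2 fold change -2.85 ± 0.20 (SE), adjusted p = 8.36e-07). Bone against skin did not pass (log2 fold change -0.39 ± 0.19 (SE), 95% interval -0.79 to 0.02, adjusted p = 0.110); without skin 1, the skin library with the lowest level, it passed at -0.55 with an adjusted p = 0.0242, and with library size alone its sign turned to 0.31. Thbs1 lies on chromosome 2, 118111922 to 118127133, on the plus strand, with 22 merged exons and 6073 exon bases, of which 208 bases (3.42%) overlap Gm29233 on the opposite strand. Thbs1 is known to respond quickly to serum and stress, as immediate early genes do. The 12 immediate early genes moved with tissue. Against bone, 1 was called higher and 9 lower in thymus, and all 12 were called lower in thymus than in skin. Between bone and skin, 7 were called lower in bone and none higher. Fos and Nr4a1 were still higher in every bone library than in any skin library. With library size alone the last comparison became 3 higher and 4 lower in bone. The median log2 fold changes of the 12 genes were -1.53, -2.22 and -0.84 (with library size alone -1.58 and -0.15 for the comparisons with skin). Their sum was 5255 to 7247 CPM in thymus, 13033 to 15186 CPM in bone and 18674 to 22861 CPM in skin. Klf4, a member of that list, was at 259 ± 53.7 CPM in thymus, 1235 ± 228 CPM in bone and 1486 ± 287 CPM in skin. Platelets store thrombospondin 1. The sort left out cells positive for CD41, which marks platelets and megakaryocytes. The 8 platelet and megakaryocyte markers summed to 4.11 to 11.2 CPM in thymus and 21.9 to 27.2 CPM in skin. In bone 1, 2 and 3 they summed to 49.2, 20.6 and 88.6 CPM, and Thbs1 too was highest in bone 3. The part of cell handling and of platelets in the Thbs1 level was not tested.

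Thbs2 stood at 489, 510.5 and 493 CPM in thymus, 567, 783 and 637 CPM in bone and 733, 674 and 1161 CPM in skin. Thymus lay below bone and skin without overlap, and bone and skin overlapped. Only thymus against skin passed the test (log2 fold change -0.78 ± 0.21 (SE), adjusted p = 0.0102, a 1.72-fold difference). That call was lost with library size alone (-0.15, adjusted p = 0.569) and on log2(RPKM + 1) (-0.19, adjusted p = 0.459), and without skin 3, the library with the highest level, the difference fell to -0.50. Thymus against bone did not pass (log2 fold change -0.41 ± 0.20 (SE), 95% interval -0.86 to 0.03, adjusted p = 0.146); it passed when only these 2 tissues were fitted (adjusted p = 0.0398) and without skin 3 (adjusted p = 0.0428). Bone against skin did not pass (log2 fold change -0.37 ± 0.20 (SE), 95% interval -0.82 to 0.08, adjusted p = 0.159), and its sign turned to 0.32 with library size alone. Thbs2 lies on chromosome 17, 14665500 to 14694262, on the minus strand, with 21 merged exons and 7003 exon bases. The ratio of Thbs1 to Thbs2 in RPKM was 0.354, 0.358 and 0.262 in thymus, 1.47, 1.06 and 1.53 in bone and 1.19, 1.91 and 1.10 in skin, so that Thbs2 exceeded Thbs1 in each thymus library and Thbs1 exceeded Thbs2 in each of the others.

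The pentameric thrombospondins differed from each other in skin. Thbs3 stood at 106, 136 and 126 CPM in thymus, 461, 382 and 466 CPM in bone and 419.6, 556 and 469 CPM in skin. It was 3.56-fold lower in thymus than in bone (log2 fold change -1.83 ± 0.16 (SE), adjusted p = 6.19e-06) and 3.93-fold lower than in skin (log2 fold change -1.97 ± 0.16 (SE), adjusted p = 2.69e-06). Bone and skin overlapped and did not pass (log2 fold change -0.14 ± 0.16 (SE), 95% interval -0.48 to 0.20, adjusted p = 0.484), though with library size alone Thbs3 was higher in bone, by 0.55 with an adjusted p = 0.00627. Thbs3 lies on chromosome 3, 89215187 to 89226837, on the plus strand, with 20 merged exons and 4823 exon bases. Of these, 318 bases (6.59%) overlap Mtx1 on the opposite strand, a gene at 13.0, 12.1 and 20.0 CPM on average in thymus, bone and skin, so a share of reads could have been counted for either or for none.

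Thbs4, found in tendon, muscle and nerve, was high in bone alone. Its levels were 247, 245 and 239.9 CPM in thymus, 1001, 1041 and 1777 CPM in bone and 159.8, 321 and 209.9 CPM in skin. All bone libraries lay above all others, bone 3 was the highest, and thymus fell within the range of skin. Thbs4 was 5.22-fold lower in thymus than in bone (log2 fold change -2.39 ± 0.28 (SE), adjusted p = 7.37e-05) and 5.53-fold higher in bone than in skin (log2 fold change 2.47 ± 0.28 (SE), adjusted p = 3.84e-05). Thymus against skin did not pass (log2 fold change 0.08 ± 0.27 (SE), 95% interval -0.51 to 0.67, adjusted p = 0.842); its sign turned to -0.12 without skin 1, and with library size alone it passed at 0.73 with an adjusted p = 0.0260. Thbs4 lies on chromosome 13, 92751586 to 92794818, on the minus strand, with 22 merged exons and 3289 exon bases. Tendon and joint markers were also highest in bone. Fmod, fibromodulin, was at 12.7 ± 1.10 CPM in thymus, 819 ± 239 CPM in bone and 35.1 ± 11.8 CPM in skin. Tnmd, tenomodulin, was at 0.238 ± 0.0548 CPM in thymus, 59.2 ± 6.49 CPM in bone and 10.8 ± 1.12 CPM in skin. All 6 such markers were higher in bone than in thymus and in skin. Between thymus and skin, 4 of the 6 were called lower in thymus and none higher, while Thbs4 did not pass. Within bone, these markers did not share an order. Fmod, Mkx and Kera were highest in bone 2, Prg4 and Tnmd in bone 1, and Scx in bone 3, where Thbs4 was highest too. The part of these markers in the Thbs4 level was not tested.

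Per length, Thbs1 to Thbs4 together came to 222, 246 and 213 RPKM in the thymus libraries, 679, 739.7 and 965 RPKM in bone and 322, 395 and 433 RPKM in skin. Their relative Comp, far higher in bone than in the other tissues, was left out of this sum and of the shares below. Each tissue divided the sum in its own way. Thbs4 made up 44.7, 44.9 and 56.6% in bone, 34.2, 32.0 and 33.5% in thymus and 10.9, 16.4 and 10.4% in skin. Thbs2 made up 37.6, 36.9 and 38.4% in thymus, 13.9, 18.6 and 11.2% in bone and 27.6, 19.0 and 31.7% in skin. Thbs1 took the largest share in skin, with 32.9, 36.3 and 34.8%, beside 20.6, 19.8 and 17.2% in bone and 13.3, 13.2 and 10.0% in thymus. Thbs3 made up 28.6, 28.4 and 23.2% in skin, 20.8, 16.7 and 15.05% in bone and 14.9, 17.8 and 18.1% in thymus. The ratio of Thbs4 to Thbs3 was 2.30, 1.798 and 1.86 in thymus, 2.15, 2.69 and 3.76 in bone and 0.381, 0.576 and 0.447 in skin, above 1 in every thymus and bone library and below 1 in every skin library.

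**Figure D4:**
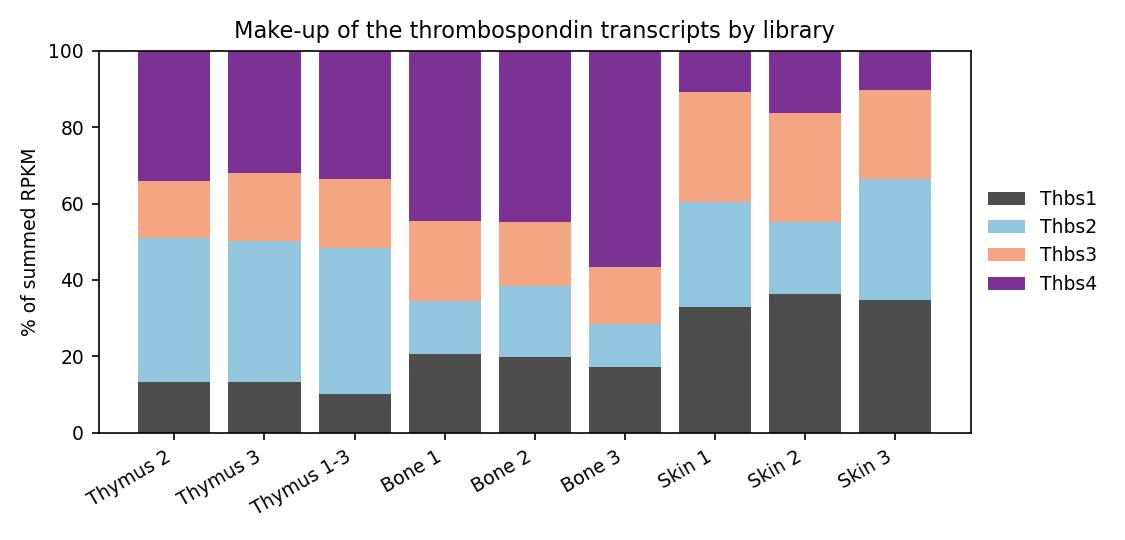
Share of each of the genes Thbs1 to Thbs4 in their summed RPKM, in percent, with 1 bar per library and Comp left out. Thbs4 took 44.7 to 56.6% in bone against 10.4 to 16.4% in skin. Thbs2 took 36.9 to 38.4% in thymus.

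Among 18 other matricellular genes and relatives of the 9, 2 were higher and 9 lower in thymus than in bone, 4 higher and 8 lower in thymus than in skin, and 8 higher and 5 lower in bone relative to skin; with library size alone, thymus against skin became 6 and 6, and bone against skin 10 and 5. Their median log2 fold changes were -2.02, -0.53 and 1.36; for thymus against skin the median turned to 0.11 with library size alone and was -0.07 on log2(RPKM + 1). Comp, the relative of Thbs3 and Thbs4, was far higher in bone, at 1.93 ± 0.584 CPM in thymus, 1102 ± 84.6 CPM in bone and 0.255 ± 0.172 CPM in skin (log2 fold change 12.10 ± 0.53 (SE), adjusted p = 1.75e-07 for bone against skin). Tnn, tenascin-N, was at 0.176 ± 0.113 CPM in thymus, 146 ± 84.8 CPM in bone and 0.409 ± 0.176 CPM in skin, and its bone libraries stood at 71.6, 238 and 127 CPM. Sparcl1, the closest relative of Sparc, was lowest in skin, where Sparc was highest, at 3723 ± 266 CPM in thymus, 766 ± 118 CPM in bone and 62.5 ± 17.9 CPM in skin (log2 fold change 5.90 ± 0.26 (SE), adjusted p = 3.49e-08 for thymus against skin). Cyr61, a secreted integrin ligand, was at 334 ± 24.0 CPM in thymus, 458 ± 27.4 CPM in bone and 1862 ± 215 CPM in skin, with log2 fold change -2.48 ± 0.15 (SE), adjusted p = 2.60e-07 for thymus against skin. Its relative Ctgf was instead highest in bone, at 119 ± 22.5 CPM in thymus, 1252 ± 160.0 CPM in bone and 63.9 ± 51.2 CPM in skin (log2 fold change 4.29 ± 0.51 (SE), adjusted p = 9.67e-05 for bone against skin). Its skin libraries stood at 34.6, 34.0 and 123 CPM, and without skin 3 the difference between bone and skin grew to 5.19. Smoc1, which has a domain like that of Sparc, was at 1.19 ± 0.282 CPM in thymus, 20.7 ± 6.31 CPM in bone and 2.09 ± 0.288 CPM in skin, higher in bone than in thymus (log2 fold change -4.12 ± 0.32 (SE), adjusted p = 2.95e-06 for thymus against bone). Spp1, osteopontin, a bone matrix protein, stood at 308, 674 and 381 CPM in bone and under 1 CPM in every thymus and skin library. Osteoblast markers moved with it, at 23.4 to 29.9 CPM in thymus, 219.6 to 527 CPM in bone and 7.21 to 12.1 CPM in skin for the sum of 7 genes.

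**Figure D5:**
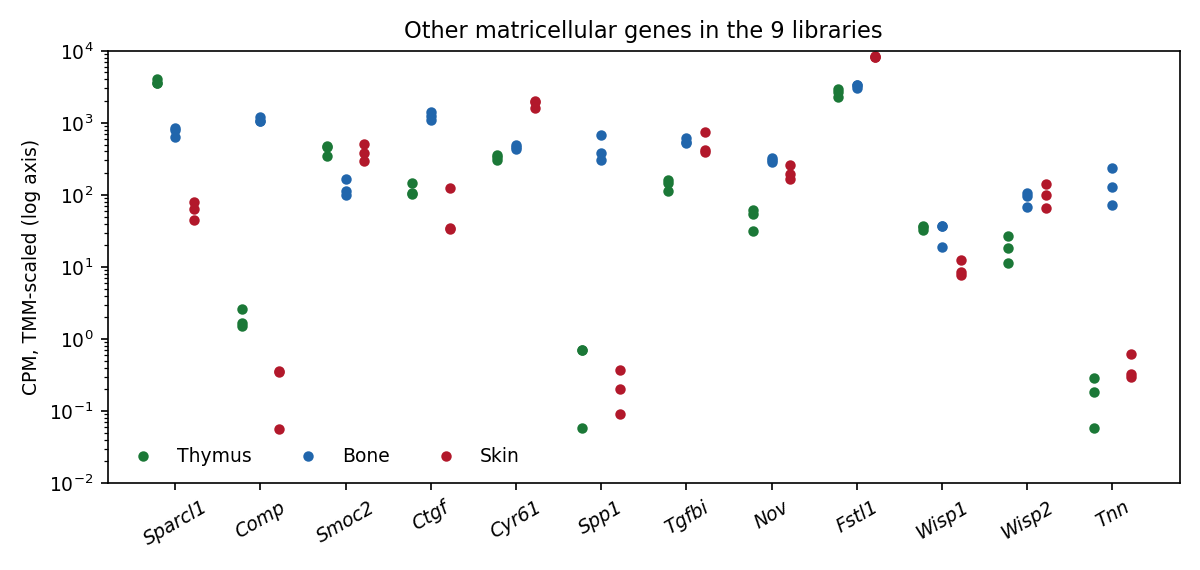
Level of 12 other matricellular genes in the 9 libraries, in TMM-scaled CPM on a log axis, with 1 point per library coloured by tissue. Comp, Spp1 and Tnn were above 70 CPM in each bone library and below 3 CPM in each thymus and skin library, while Sparcl1 fell from thymus through bone to skin.

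Of 16 cell surface receptors of these proteins, 1 was higher and 6 lower in thymus than in bone, 5 higher and 7 lower in thymus than in skin, and 6 higher and 2 lower in bone relative to skin, where library size alone gave 7 and 3, and 10 and 0, for the latter 2 comparisons. Their median log2 fold changes were -0.68, -0.41 and 0.14, and with library size alone the latter 2 came to 0.22 and 0.82, which turned the sign for thymus against skin. Itga4, a fibronectin receptor subunit best known from blood cells, was at 4.24 ± 2.07 CPM in thymus, 41.5 ± 5.99 CPM in bone and 0.880 ± 0.462 CPM in skin (log2 fold change 5.54 ± 0.48 (SE), adjusted p = 8.61e-06 for bone against skin). Itga8, an integrin subunit that binds fibronectin and tenascin-C, was at 82.5 ± 10.5 CPM in thymus, 16.6 ± 3.34 CPM in bone and 3.86 ± 1.47 CPM in skin (log2 fold change 4.42 ± 0.30 (SE), adjusted p = 1.15e-06 for thymus against skin). Itgb3, the beta subunit that pairs with Itgav to bind fibronectin and thrombospondin, was at 24.9 ± 6.92 CPM in thymus, 103 ± 12.6 CPM in bone and 205 ± 21.4 CPM in skin (log2 fold change -3.04 ± 0.21 (SE), adjusted p = 7.28e-07 for thymus against skin). Sdc4, the syndecan that binds fibronectin, was at 23.8 ± 5.88 CPM in thymus, 196 ± 22.1 CPM in bone and 119 ± 38.4 CPM in skin (log2 fold change -3.04 ± 0.26 (SE), adjusted p = 7.39e-06 for thymus against bone).

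Of 15 collagens and other matrix partners, 6 were higher and 5 lower in thymus than in bone, 3 higher and 9 lower in thymus than in skin, and 2 higher and 10 lower in bone relative to skin, with medians of -0.12, -1.03 and -1.21; with library size alone the last 2 comparisons gave 4 and 8, and 3 and 8, with medians of -0.40 and -0.51. Col3a1, type III collagen, was at 23372 ± 1542 CPM in thymus, 28016 ± 1054 CPM in bone and 154299 ± 7427 CPM in skin (log2 fold change -2.72 ± 0.15 (SE), adjusted p = 1.81e-07 for thymus against skin). Col1a2 went the same way, at -3.23 for thymus against skin and -2.45 for bone against skin. Ltbp1, which holds latent TGF-beta on fibronectin fibrils, was highest in thymus, at 1402 ± 99.4 CPM in thymus, 233 ± 40.1 CPM in bone and 305 ± 34.0 CPM in skin (log2 fold change 2.59 ± 0.17 (SE), adjusted p = 7.61e-07 for thymus against bone). Of 12 TGF-beta pathway genes, 3 were higher and 5 lower in thymus than in bone, 5 higher and 5 lower in thymus than in skin, and 7 higher and 5 lower in bone relative to skin, where library size alone gave 7 and 3, and 7 and 2; the medians were -0.25, 0.04 and 0.53, and with library size alone 0.67 and 1.22 for the comparisons with skin. The receptor Tgfbr1 was at 111 ± 6.39 CPM in thymus, 115 ± 3.05 CPM in bone and 34.2 ± 4.45 CPM in skin (log2 fold change 1.74 ± 0.13 (SE), adjusted p = 1.25e-06 for bone against skin) and Tgfbr2 at 811 ± 84.7 CPM in thymus, 385 ± 31.4 CPM in bone and 1408 ± 197 CPM in skin (log2 fold change -1.87 ± 0.16 (SE), adjusted p = 3.05e-06 for bone against skin). The ligand Tgfb3 was at 106 ± 8.27 CPM in thymus, 194 ± 23.6 CPM in bone and 61.8 ± 10.7 CPM in skin, and Skil, an inhibitor induced by the pathway, at 46.8 ± 7.35 CPM in thymus, 182 ± 33.0 CPM in bone and 77.6 ± 11.2 CPM in skin.

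By the likeness of their pattern over the 9 libraries (Pearson r of log2(CPM + 0.5) among 8604 genes with a mean of at least 10 CPM), the nearest genes were as follows; the r values largely reflect the 3 tissue means, so they carry no test. Fn1 was most like Ntn1 (76.9 ± 17.1 CPM in thymus, 720.2 ± 89.9 CPM in bone, 462 ± 89.1 CPM in skin), with r = 0.997, and Nfatc2 (0.992). Postn was most like Pja1 (0.997) and Clip2 (0.995). Sparc was most like Twist2 (5.95 ± 0.502 CPM in thymus, 6.20 ± 0.395 CPM in bone, 56.9 ± 7.34 CPM in skin), with r = 0.998, and Tgfbr3 (0.997). Tnc was most like Pde4b (0.991) and Avl9 (0.990), and Tnxb was most like Olfml2b (0.993) and Islr2 (0.992). Thbs1 was most like Klf4 (0.995) and Abl2 (0.994). Thbs2 had no neighbour as close, with Omd (0.949) and Pdk4 (0.946) first. Thbs3 was most like Hk2 (0.995) and Rel (0.994), and Thbs4 was most like Ecm2 (146 ± 5.45 CPM in thymus, 269 ± 24.5 CPM in bone, 137 ± 19.6 CPM in skin), with r = 0.992, and Tiam2 (0.986). Among the 9 genes themselves, Thbs1 and Thbs3 went together (r = 0.98, n = 9 libraries) and Postn and Thbs4 went opposite (r = -0.97, n = 9 libraries).

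Together the 9 genes took 6.22 ± 0.354% of all gene reads in bone, 5.28 ± 0.356% in skin and 2.44 ± 0.105% in thymus (SD, n = 3 each). On TMM-scaled CPM the order of bone and skin turned: the 9 genes summed to 20409.6 to 22138 CPM in thymus, 47277 to 55704 CPM in bone and 66472 to 80609 CPM in skin. The spread between libraries was widest for Tnc in skin, with a coefficient of variation of 41.6%, followed by Thbs4 in skin at 35.8% and in bone at 34.3%, and narrowest for Thbs4 in thymus at 1.42%.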

How the data were processed

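RNA from sorted SCA1-positive, lineage-negative cells of thymus, bone and skin was sequenced in 9 libraries. The deposited count tables hold whole read counts per gene symbol; CASAVA 1.8.2, HTSeq 0.5.4 and mm10 appear in the submitters' processing notes, whose roles for them are not stated, and no aligner, annotation or strand setting is given in the sources used here. RPKM tables made by the authors add coordinates and a signal column, a deposited whole number that came to 98.5 to 99.2 read bases per read in the median and was used only to check the tables. Summary lines, 5.05 to 14.8% of reads, were left out.

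Tests on the counts used edgeR 4.0.16 under R 4.3.3 (quasi-likelihood, robust, TMM factors, filterByExpr by tissue, 1 fit of all 9 libraries, Benjamini-Hochberg adjustment over 15635 genes, threshold 0.05). Standard errors were worked back from the test statistic and are approximate, and intervals are at 95%. The procedure was tested on simulated data. RPKM was used for ratios within libraries and for levels of different genes, over 23034 symbols with a single line. Alternatives were other scalings, other filters, DESeq2 1.42.0, limma 3.58.1 on log2(RPKM + 1) and log2(RPKM + 0.1), each library left out, 2 tissues only, and a replicate block.

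The 9 genes and the 19 other gene lists were chosen with earlier results of these data known. Named were all 9 genes, up to 4 genes per list with the smallest p in any comparison, the 3 most abundant of each marker list, and 2 genes of most similar pattern per gene among genes with a mean of at least 10 CPM. Ly6a, Pdgfra, Tnn, Ctgf, Spp1, Klf4, Matn1, Gp5, Gp9 and Treml1, and the 4 printed promoters, were chosen after their values were seen. In GENCODE M21, exons of all transcripts of a gene were merged.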

Additional observations from a re-analysis of the deposited data

How the results depend on the processing

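Over 20 alternatives, 510 of 540 values of the 9 genes kept their direction and their side of the threshold. Of the rest, 17 reversed, 9 kept their direction but passed the threshold only under the alternative, and 4 no longer passed. Thbs3 for bone against skin was among those reversed, and passed the threshold as higher in bone under 4 alternatives. Of the 20 differences called, 19 were called under each of the 20 alternatives, and the exception was Thbs2 for thymus against skin. Genes higher in thymus than in skin numbered 3 with library size alone and on log2(RPKM + 1), and 2 on log2(RPKM + 0.1) and on log2(RPKM + 1) with no filter, against 1. Most reversals came with library size alone or RPKM, both of which omit the TMM factors: for bone against skin, Thbs1 came to 0.31 and 0.19, Thbs2 to 0.32 and 0.21, and Thbs3 to 0.55 and 0.43, the second value being the same for log2(RPKM + 1), log2(RPKM + 0.1) and no filter. Of all genes called for thymus against skin, 51.3% were higher in thymus, and 85.4% with library size alone; for bone against skin these shares were 50.3% and 84.3%. Sparc for thymus against bone came to -0.0157 with upper quartile factors, -0.0210 with library size alone and -0.0187 with the replicate block. Thbs4 for thymus against skin came to -0.0746 with the replicate block and ranged from -0.12 to 0.40 with 1 library left out; the cause was not tested.

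Deviations of same-numbered libraries correlated between -0.07 and 0.09, and none of the 6 bone and skin libraries correlated best with its own number. With so few libraries per tissue, these values cannot decide whether same-numbered libraries share mice or a batch. With the replicate block, calls over all genes for thymus against bone numbered 3399 against 5101, and no count of the 9 genes changed. In that fit thymus 1-3 stood alone under its label, so the thymus comparisons rested on thymus 2 and 3. Having 3 libraries per tissue limits the precision, and even the lowest level, that of Tnc in skin, was 15.2 to 32.4 CPM.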

Other observations

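Markers of other cell types also differed between tissues, and their part in the levels of the 9 genes was not tested. The 7 thymocyte markers summed to 55.7 to 160.4 CPM in thymus, 29.6 to 38.5 CPM in bone and 0.0733 to 0.623 CPM in skin, and the 6 B cell markers to 0.537 to 3.54 CPM in thymus, 84.0 to 120.5 CPM in bone and 0.242 to 0.382 CPM in skin. The 7 pericyte and smooth muscle markers summed to 733 to 1068 CPM in thymus, 329 to 367 CPM in bone and 48.7 to 126 CPM in skin, among them Des at 691 ± 140.1 CPM in thymus, 12.6 ± 4.30 CPM in bone and 11.7 ± 2.31 CPM in skin. The 6 endothelial markers summed to 59.5 to 96.0 CPM in thymus, 60.5 to 77.3 CPM in bone and 247 to 345 CPM in skin. The 6 keratinocyte markers summed to 21.4 to 27.7 CPM in thymus, 2.70 to 4.20 CPM in bone and 51.1 to 128 CPM in skin, the 6 skeletal muscle markers to 1.35 to 2.17 CPM in thymus, 1.34 to 3.82 CPM in bone and 16.1 to 39.2 CPM in skin, the 5 Schwann cell markers to 1.54 to 2.27 CPM in thymus, 26.4 to 42.3 CPM in bone and 16.4 to 29.3 CPM in skin and the 5 thymic epithelial markers to 2.12 to 3.68 CPM in thymus, 0.145 to 1.17 CPM in bone and 2.42 to 9.17 CPM in skin.

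Within bone, the matrix genes of skeletal cells varied between libraries. Ibsp, a bone sialoprotein, stood at 63.2, 284 and 94.99 CPM in bone 1, 2 and 3, and Spp1 and Tnn were highest in bone 2 as well. Of the other osteoblast markers, Sp7, Alpl, Runx2 and Phex were highest in bone 2, but Bglap and Dmp1 were lowest there. Bglap stood at 7.37, 5.93 and 8.02 CPM, and Dmp1 at 11.1, 0.776 and 6.07 CPM, in bone 1, 2 and 3. Postn was highest in bone 2, while Tnc and Thbs4 were highest in bone 3. With 1 library of each kind, these are single values with no test.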
